A study of Rattus norvegicus with 12 samples.

Results

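The genes described here are 44 genes of mitosis and of the G2/M transition, measured in PC12 cells, a rat tumour line derived from chromaffin cells of the adrenal medulla. They were chosen by name: for each of the 44 gene symbols the array feature with that symbol alone and, where there was more than 1, with the highest mean over the 12 arrays was taken. All 44 had such a feature and all 44 lay above the filter on low values, among 15313 named genes that did. A feature is a transcript cluster of the array, and its level is the log2 value that the authors deposited. The cells carry a GFP-tagged exon-1 fragment of huntingtin with 74 glutamines, expressed when doxycycline is added, which models Huntington disease in culture. The 12 arrays form 4 groups of 3. Non-induced cells received the vehicle DMSO and no doxycycline, and induced cells received 1 µg/ml doxycycline with DMSO, with compound 3 or with compound 6. Each compound, described in the study's title as an analogue of guanabenz, was given at 10 µM for 48 h. No treatment time was recorded for the DMSO arrays, so whether vehicle and compound times match is not known. Doxycycline went to every induced group and to no other, so fragment and inducer cannot be told apart, and the labels do not say whether the line is 1 clone or whether replicates are separate cultures.

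Entry into mitosis is driven by cyclin-dependent kinase 1 with cyclins A and B. The Polo and Aurora kinases then build the spindle, kinetochores attach chromosomes to it, and the spindle checkpoint holds back the anaphase-promoting complex (APC/C), the ubiquitin ligase whose activity ends mitosis, until attachment is complete. Most of these genes are transcribed late in the cell cycle, so that in a growing tumour line such as PC12 their messenger RNA comes mainly from cells in G2 and mitosis. In a bulk RNA sample, fewer such cells and less of the RNA in each cannot be told apart.

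Arrays were alike in their medians, 4.61 to 4.70 log2 units, but their upper range differed: the 95th percentile of the features kept was 11.15 to 11.27 on non-induced arrays, 11.31, 11 and 10.83 on induced DMSO arrays 1, 2 and 3, and 10.97 to 11.21 with the compounds. Of 12 chromaffin markers 11 had a feature, all above the filter, and in the induction comparison 9 were called lower and 1 higher. Averaged over those markers, arrays lay at 10.50 to 10.70 in non-induced cells, 9.75 to 10.03 in induced DMSO cells, 9.15 to 9.68 with compound 3 and 9.82 to 10.12 with compound 6. Whether this change has a part in that of the mitotic genes was not tested. Of 34 markers of fibroblasts, macrophages, endothelium, Schwann or glial cells and adrenal cortex 30 had a feature and 18 lay above the filter. In the induction comparison 1, Thy1, was called (lower), and it had the highest mean of these markers, 11.22. The highest of the other means was 7.83, for C1qa, and the median was 4.83. Below, differences are in log2 units with ± for the standard error, 3 arrays per group, and a gene is called changed at an adjusted p under 0.05 from limma with Benjamini-Hochberg adjustment over 34422 features.

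After induction in vehicle many of these genes were lower by modest amounts. Of 44 genes 43 lay below 0, 20 fell and 0 rose, which is 45.5% called lower where 4.86% of all features were called lower and 4.2% higher. The genes were chosen by name but with earlier results of these data known, so these shares are a description and not a test. The median difference was -0.23, a 0.851-fold level, against 0.01 over all features kept. It was -0.01 over the 11174 features whose mean lay in the range of the 44, 7.52 to 11.06. Of those features 8.93% were called lower and 51% lay below 0, where 44.4% of all features kept did. The 3 induced DMSO arrays lay below all 3 non-induced arrays for 34 genes, or 77.3%, where 9.45% of all features did so. Averaged over the 44 genes, the non-induced arrays lay at 9.19, 9.17 and 9.22, and the induced DMSO arrays at 9.04, 8.92 and 8.96. Quantile normalisation, which removes the unequal upper range, left a median of -0.16 with 39 of 44 genes below 0 and 13 called. The count was sensitive to single arrays: omitting non-induced array 2 gave 10, non-induced array 3 gave 6, induced DMSO array 2 gave 5 and induced DMSO array 3 gave 11, while the median stayed between -0.28 and -0.20 whichever of the 12 arrays was left out. Over all 23 alternative settings 4 genes, Nuf2, Kif4a, Top2a and Anln, were called each time, and the other 16 failed the threshold in 1 (Cdc25b, Ttk) to 13 (Ccna2) of them. Bub1b and Cenpe failed in 2, Kif11 in 3, Prc1 and Smc2 in 5, and Ccnb1, Tpx2 and Racgap1 in 6. Cenpf, Hmmr and Kif20b failed in 7, and Ndc80 and Mki67 in 12.

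**Figure D1:**
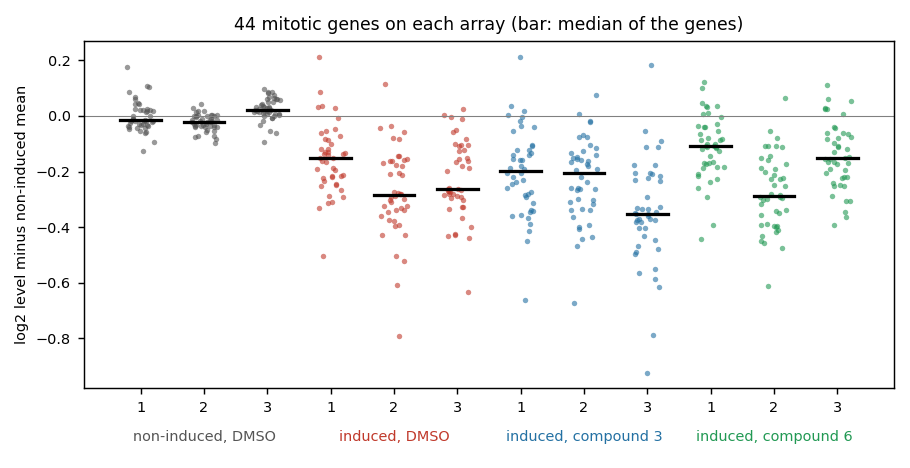
Each point is 1 of the 44 mitotic genes on 1 array, as its log2 level minus that gene's mean in non-induced cells (vertical axis, log2 units), for arrays 1 to 3 of each of the 4 groups (horizontal axis); the bar is the median of the 44 genes. On all 9 induced arrays the median lies below 0, lowest on compound 3 array 3.

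Among cyclins, CDK1 and the regulators of mitotic entry, 3 of 8 fell, where 4.86% of all features were called lower. Counts in this and the other roles rest on few genes and are not read as a result about a role. Of all features 9.45% lay lower without overlap. Genes shown array by array were mostly named for the smallest p, so their lack of overlap is no further support. Cyclin B1, Ccnb1, the partner of CDK1 at mitotic entry, lay at 10.21, 10.01 and 10.10 on non-induced arrays and at 9.82, 9.73 and 9.82 on induced DMSO arrays. Cdc25b, the phosphatase that starts CDK1 activation, lay at 9.23, 9.11 and 9.09 and then at 8.90, 8.87 and 8.84. Neither gene's groups overlapped. Ccnb1 fell by 0.32 ± 0.08 (adjusted p = 0.0226) and Cdc25b by 0.27 ± 0.06 (adjusted p = 0.0101). The third, cyclin A2, Ccna2, fell by 0.23 ± 0.06 (adjusted p = 0.0444), which failed the threshold under 13 of 23 alternatives. Cdk1 itself was at -0.18 (adjusted p = 0.106) with no overlap, and Foxm1, a transcription factor of late cell cycle genes, at -0.12 (adjusted p = 0.172). Cdca3, which promotes mitotic entry, and Ccnb2, another B-type cyclin, lay at -0.10 (adjusted p = 0.465) and -0.11 (adjusted p = 0.375). The sign of the Ccnb2 difference turned in 1 of 23 alternatives, to 0.02, and its feature carries an identifier of another chromosome than RefSeq gives. Cdc25c, a further CDK1-activating phosphatase, was the only 1 of the 44 above 0, at 0.11 (95% interval -0.02 to 0.24, adjusted p = 0.337), with 7.68, 7.60 and 7.63 on non-induced and 7.85, 7.75 and 7.64 on induced DMSO arrays.

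Mitotic kinases outside the checkpoint did not pass. Plk1, the Polo kinase, gave the highest mean signal of the 44 (11.06), with 11.21, 11.15 and 11.20 on non-induced and 11.10, 11.01 and 11.02 on induced DMSO arrays, without overlap. Aurka, the spindle-pole Aurora kinase, lay at 8.03, 8.06 and 8.08 and then at 8.01, 7.90 and 7.95, so every induced DMSO array was lower by a small amount. The differences were -0.14 ± 0.06 (adjusted p = 0.206) and -0.10 ± 0.06 (adjusted p = 0.337). Nek2, a centrosome kinase, was at -0.03 (adjusted p = 0.742). After quantile normalisation the differences of Plk1 and Nek2 lay just above 0, at 0.01 each.

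In the spindle checkpoint and APC/C group 2 of 6 fell, where 4.86% of all features were called lower. Ttk, the MPS1 kinase at the top of the checkpoint, lay at 9.01, 8.97 and 9.0 on non-induced arrays and at 8.74, 8.49 and 8.56 on induced DMSO arrays. Bub1b, which encodes the checkpoint protein BUBR1, lay at 8.18, 8.18 and 8.27 and then at 7.92, 7.88 and 7.95. Both sets of arrays were apart. Ttk fell by 0.40 ± 0.08 (adjusted p = 0.0119) and Bub1b by 0.29 ± 0.06 (adjusted p = 0.0143). Ube2c, the ubiquitin-conjugating enzyme of the APC/C, was at -0.23 (adjusted p = 0.187), the checkpoint protein Mad2l1 at -0.16 (adjusted p = 0.167), the checkpoint kinase Bub1 at -0.10 (adjusted p = 0.444) and the APC/C activator Cdc20 at -0.09 (adjusted p = 0.38).

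Centromere and kinetochore genes held the gene with the greatest difference of the 44. Nuf2, a subunit of the NDC80 complex that binds microtubules, lay at 10.16, 10.20 and 10.31 on non-induced arrays and at 9.72, 9.43 and 9.59 on induced DMSO arrays, which is well apart. It fell by 0.64 ± 0.09 (95% interval -0.85 to -0.44, adjusted p = 0.00133), a 0.64-fold level. Cenpe, a kinetochore motor, lay at 7.88, 7.97 and 8.07 and then at 7.66, 7.60 and 7.64, and fell by 0.34 ± 0.07 (adjusted p = 0.0128). Cenpf, a large kinetochore protein, fell by 0.34 ± 0.09 (adjusted p = 0.0319), failing the threshold under 7 of 23 alternatives. Of the partners of Nuf2 in the NDC80 complex, Ndc80 fell by 0.23 ± 0.06 (adjusted p = 0.0387, lost in 12 of 23), and Spc25 was at -0.25 ± 0.08 (adjusted p = 0.0887). Whether these subunits differ from Nuf2 was not tested. Cenpa, the centromeric histone H3 variant, was at -0.05 (adjusted p = 0.8), with overlapping groups. So 4 of the 6 fell, where 4.86% of all features were called lower.

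None of the chromosomal passenger complex genes passed in limma (0 of 3), and 2 did at an unadjusted p under 0.05, which 21% of all features reached. Aurkb, its kinase, lay at 9.87, 9.75 and 9.86 on non-induced arrays and at 9.56, 9.22 and 9.50 on induced DMSO arrays. Birc5, which encodes survivin, lay at 9.51, 9.52 and 9.57 and then at 9.40, 9.32 and 9.41. Cdca8, which encodes borealin and gave the lowest mean signal of the 44 (7.52), lay at 7.67, 7.65 and 7.63 and then at 7.53, 7.57 and 7.60. None of the 3 overlapped between groups, where 9.45% of all features lay lower without overlap. The Aurkb difference, -0.40 ± 0.12 (95% interval -0.67 to -0.13, adjusted p = 0.0667), had the size of the Ttk difference with a larger standard error. Birc5 was at -0.16 (adjusted p = 0.208) and Cdca8 at -0.08 (adjusted p = 0.466).

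Of 9 kinesin motors and spindle proteins 6 fell, where 4.86% of all features were called lower. Kif4a, a chromosome-bound motor, lay at 9.17, 9.10 and 9.18 on non-induced arrays and at 8.84, 8.79 and 8.86 on induced DMSO arrays. Kif11, the motor that pushes spindle poles apart, lay at 9.75, 9.79 and 9.82 and then at 9.57, 9.39 and 9.46. Groups were apart in both. Kif4a fell by 0.32 ± 0.06 (adjusted p = 0.0051) and Kif11 by 0.31 ± 0.07 (adjusted p = 0.0145). Hmmr, a spindle microtubule protein, fell by 0.35 ± 0.09 (adjusted p = 0.0311), and Kif20b, a motor of late mitosis, by 0.28 ± 0.07 (adjusted p = 0.0214); each call was lost in 7 of 23 alternatives. The spindle assembly factor Tpx2 and the midzone bundler Prc1 each fell by 0.26 ± 0.06 (adjusted p = 0.0188 and 0.0174). Kif23, a motor of the central spindle, was at -0.15 (adjusted p = 0.0931). The other motors lay near 0, Kif20a at -0.03 (95% interval -0.14 to 0.09) and the microtubule depolymeriser Kif2c at -0.01 (95% interval -0.13 to 0.12), and the signs of both turned in 2 of 23 alternatives.

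Of 6 genes of chromosome structure 3 fell, where 4.86% of all features were called lower. Top2a, the topoisomerase that untangles sister chromatids, lay at 9.78, 9.76 and 9.86 on non-induced arrays and at 9.47, 9.28 and 9.36 on induced DMSO arrays. Smc2, the core ATPase of condensin, lay at 9.21, 9.26 and 9.26 and then at 9.02, 8.92 and 8.96. Neither overlapped, and they fell by 0.43 ± 0.07 (adjusted p = 0.00372) and 0.28 ± 0.06 (adjusted p = 0.0189). Mki67, the surface coat protein of mitotic chromosomes used as a marker of cycling cells, fell by 0.32 ± 0.09 (adjusted p = 0.0423), failing the threshold under 12 of 23. The partner ATPase Smc4 was at -0.10 (adjusted p = 0.457), and the condensin I subunits Ncapg and Ncaph at -0.23 (adjusted p = 0.108) and -0.22 (adjusted p = 0.196).

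Of 3 cytokinesis genes 2 fell, where 4.86% of all features were called lower. Anln, which encodes the scaffold anillin of the contractile ring, lay at 9.39, 9.39 and 9.43 on non-induced arrays and at 9.17, 9.11 and 9.13 on induced DMSO arrays. Racgap1, a subunit of centralspindlin, lay at 10.45, 10.52 and 10.55 and then at 10.26, 10.16 and 10.21. Arrays of the groups were apart, with falls of 0.27 ± 0.05 (adjusted p = 0.00558) and 0.30 ± 0.07 (adjusted p = 0.0232). Ect2, the exchange factor that activates RhoA at the cleavage site, was at -0.24 ± 0.07 (adjusted p = 0.0584), also without overlap.

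**Figure D2:**
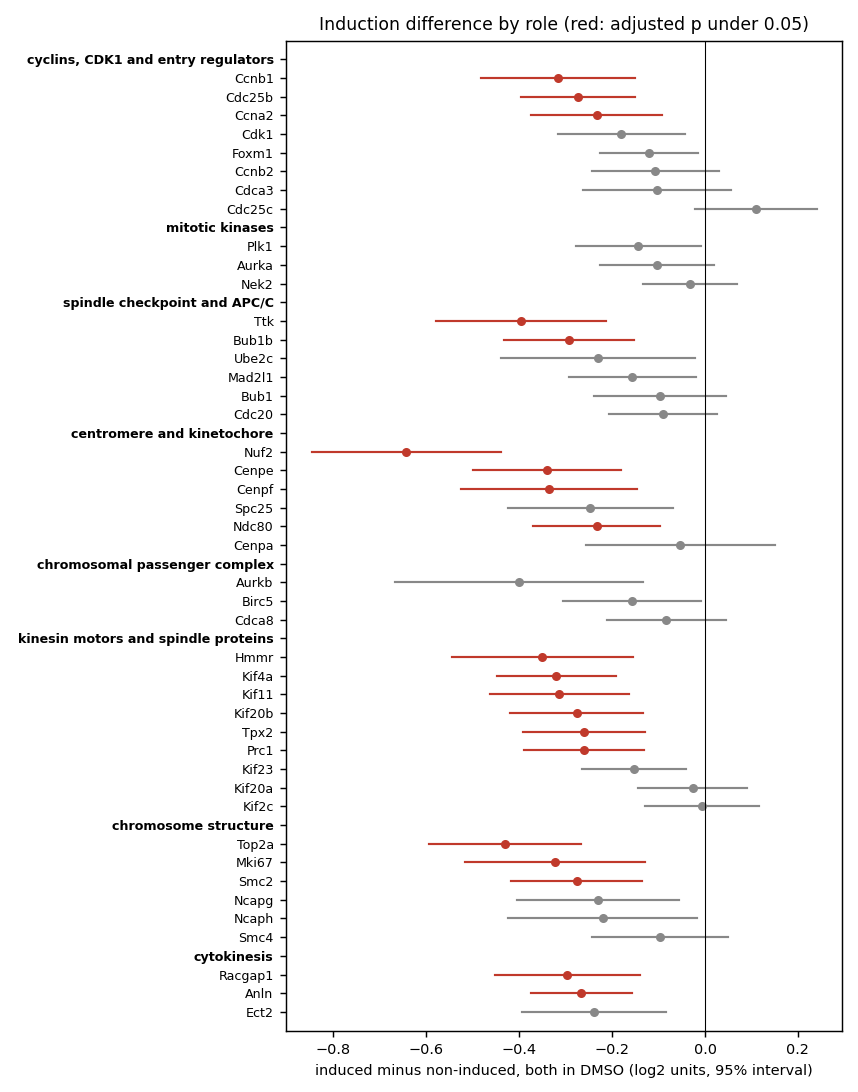
Difference between induced and non-induced cells in DMSO for each of the 44 genes, ordered by role (vertical axis), in log2 units with the 95% interval of the limma model (horizontal axis); red marks an adjusted p under 0.05. The 20 red genes all lie left of 0, from Nuf2 at -0.64 to Ccna2 and Ndc80 at -0.23, and Cdc25c alone lies right of 0.

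Promoters of these genes share sequence features that played no part in their choice. Many late cell cycle genes are controlled through the cell cycle genes homology region (CHR), which is bound by the MuvB core of the DREAM and B-MYB complexes, often near CCAAT boxes bound by NF-Y. Promoters from 250 bases before to 50 after the RefSeq gene start (rat assembly GRCr8) were matched for 38 of the 44 genes, all but Ccna2, Foxm1, Ube2c, Aurkb, Tpx2 and Racgap1. The CHR letters TTTGAA, on either strand, stood in 27 of 38, or 71.1%, against 18.3% of all 33469 promoters in the table and 12.6% of 11964 genes with a feature kept. CCAAT, on either strand, stood in 29 of 38, or 76.3%, against 37.5% of all promoters and 38.6% of genes with a feature kept. Both were present in 22 of 38 (57.9%) against 7.41% of all promoters and 5.73% of genes with a feature kept. Shares of all promoters count each promoter, whereas the other shares count each gene, with a match in any of its promoters. The letters of the motifs can share a base, as they did in 2 genes, Cdca8 and Mki67. Of 35 CHR matches 29 began at or after position -100 from the start, in 25 genes.

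The share with a CHR match was 76.5% (13 of 17) among genes called lower on induction and 66.7% (14 of 21) among those not called, and for CCAAT 76.5% and 76.2%. Whether these shares differ was not tested. The motifs were not limited to the 44 genes: among 72 promoters of other mitotic genes CHR letters stood in 54.2%, CCAAT in 59.7% and both in 38.9%. Among 41 promoters of DNA replication and S phase genes CHR letters stood in 14.6%, CCAAT in 56.1% and both in 2.44%. Shown here in full are the promoters of the 4 genes called in every setting, of Plk1 and Cdc20 as genes with both motifs that were not called, and of Nek2, which was near 0 and had CCAAT letters without TTTGAA. Sequences run 5′ to 3′ on the gene's strand, from RefSeq on GRCr8, and capitals mark TTTGAA and CCAAT or their reverse complements TTCAAA and ATTGG. The regions are Nuf2 chr13:84255549-84255848 on the minus strand, Top2a chr10:84473044-84473343 on the minus strand, Kif4a chrX:69761633-69761932 on the plus strand, Anln chr8:29197464-29197763 on the minus strand, Plk1 chr1:186147408-186147707 on the plus strand, Cdc20 chr5:137255750-137256049 on the minus strand and Nek2 chr13:105936559-105936858 on the plus strand.
Nuf2: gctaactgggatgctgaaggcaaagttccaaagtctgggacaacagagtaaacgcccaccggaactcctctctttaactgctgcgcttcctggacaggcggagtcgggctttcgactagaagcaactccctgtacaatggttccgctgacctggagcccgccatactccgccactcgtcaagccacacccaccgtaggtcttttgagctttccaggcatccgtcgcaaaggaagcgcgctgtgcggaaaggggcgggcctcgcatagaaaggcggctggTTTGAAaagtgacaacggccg
Top2a: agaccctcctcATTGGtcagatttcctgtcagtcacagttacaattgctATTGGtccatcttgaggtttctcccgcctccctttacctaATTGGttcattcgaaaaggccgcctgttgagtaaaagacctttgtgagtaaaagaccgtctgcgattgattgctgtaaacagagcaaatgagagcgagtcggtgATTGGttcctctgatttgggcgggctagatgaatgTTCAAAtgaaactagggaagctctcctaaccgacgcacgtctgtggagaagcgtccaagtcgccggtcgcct
Kif4a: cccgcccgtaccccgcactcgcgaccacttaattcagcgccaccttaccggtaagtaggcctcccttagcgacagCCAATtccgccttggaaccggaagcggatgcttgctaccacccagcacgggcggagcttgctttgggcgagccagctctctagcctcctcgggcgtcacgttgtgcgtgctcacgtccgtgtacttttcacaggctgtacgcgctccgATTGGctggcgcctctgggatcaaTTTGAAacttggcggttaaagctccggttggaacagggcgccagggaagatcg
Anln: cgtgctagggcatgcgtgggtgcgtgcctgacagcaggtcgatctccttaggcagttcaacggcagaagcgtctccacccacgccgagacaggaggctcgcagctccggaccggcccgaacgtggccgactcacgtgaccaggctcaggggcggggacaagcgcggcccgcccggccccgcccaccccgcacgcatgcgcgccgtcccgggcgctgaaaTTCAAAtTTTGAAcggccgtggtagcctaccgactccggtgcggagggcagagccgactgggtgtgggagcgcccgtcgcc
Plk1: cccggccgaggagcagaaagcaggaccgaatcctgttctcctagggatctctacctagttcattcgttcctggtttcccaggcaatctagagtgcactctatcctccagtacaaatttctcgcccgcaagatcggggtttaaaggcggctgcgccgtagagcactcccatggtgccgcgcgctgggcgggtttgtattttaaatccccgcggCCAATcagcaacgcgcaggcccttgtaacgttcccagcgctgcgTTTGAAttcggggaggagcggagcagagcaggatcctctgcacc
Cdc20: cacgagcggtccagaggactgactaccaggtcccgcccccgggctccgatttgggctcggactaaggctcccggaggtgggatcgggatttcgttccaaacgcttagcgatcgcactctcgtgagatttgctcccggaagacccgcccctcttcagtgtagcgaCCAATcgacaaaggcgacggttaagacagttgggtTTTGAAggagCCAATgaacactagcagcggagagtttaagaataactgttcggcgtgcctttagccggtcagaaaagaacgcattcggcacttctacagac
Nek2: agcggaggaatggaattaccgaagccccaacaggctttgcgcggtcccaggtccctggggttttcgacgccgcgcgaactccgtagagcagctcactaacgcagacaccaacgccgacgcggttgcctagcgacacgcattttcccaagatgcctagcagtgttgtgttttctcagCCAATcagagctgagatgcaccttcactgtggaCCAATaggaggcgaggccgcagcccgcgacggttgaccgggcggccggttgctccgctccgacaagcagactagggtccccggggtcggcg
The Nuf2 promoter has a single CHR match, 29 bases after the start, and no CCAAT. Top2a has 4 CCAAT matches and a CHR match 22 bases before the start. In Anln 2 CHR matches stand on opposite strands, 31 and 24 bases before the start. A match is a description of letters, and binding was not measured.

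**Figure D3:**
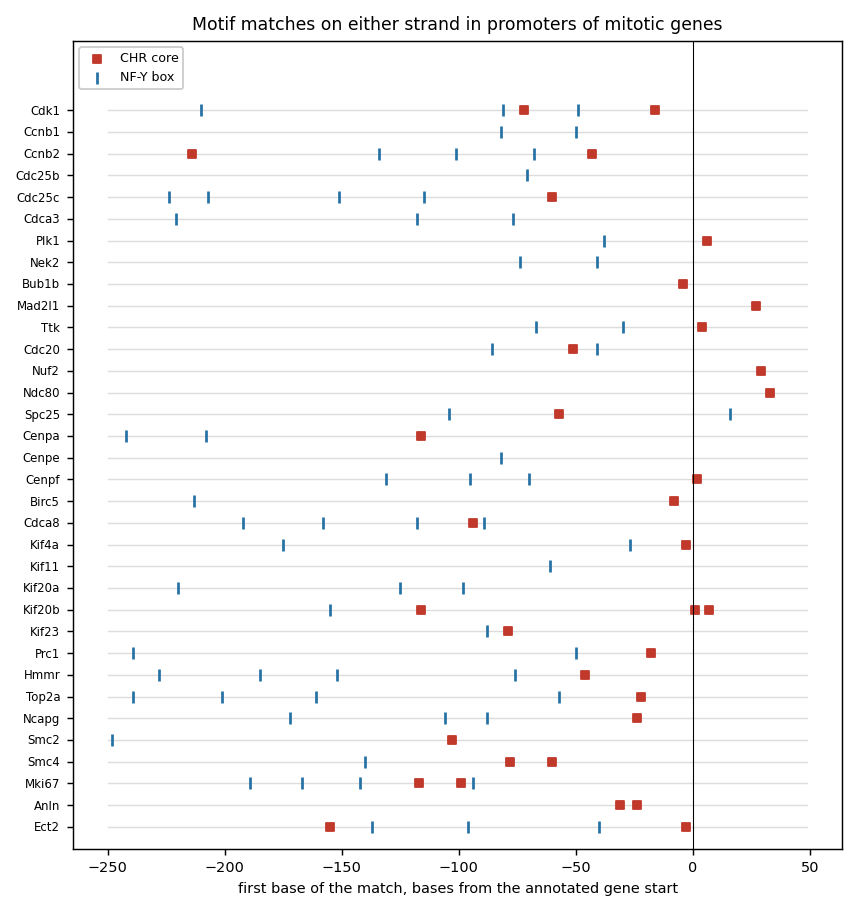
Each line is the promoter of 1 of the 34 genes with a match, from 250 bases before to 49 after the annotated start (horizontal axis, bases; 0 is the start); red squares are CHR core matches and blue ticks are NF-Y box (CCAAT) matches on either strand. CHR matches gather near the start, with CCAAT matches mostly upstream of them.

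Other mitotic genes, not among the 44, lay lower too. Of 92 symbols listed 86 had a feature and 85 passed the filter. Of these 73 lay below 0, 23 fell and 1 rose (median -0.19). Of all features 4.86% were called lower and 4.2% higher. Of features in the level range of the 44 genes, 8.93% were called lower and 6.83% higher. Mis18a, which helps load CENP-A at centromeres, fell by 0.47 ± 0.06 (adjusted p = 0.00105). The cytokinesis motor Kif14 fell by 0.40 ± 0.07 (adjusted p = 0.00537) and the checkpoint gene Zw10 by 0.22 ± 0.04 (adjusted p = 0.00487). Zwint, a kinetochore protein, rose by 0.19 ± 0.05 (adjusted p = 0.0397) but failed the threshold under 14 of 23 alternatives. Of 13 core subunits of the APC/C 0 fell and 1, Cdc23, rose by 0.18 ± 0.05 (adjusted p = 0.0295, lost in 6 of 23), with a median of -0.02. Of 12 cohesin genes 3 fell and 0 rose (median -0.10): the core ring subunit Smc1a by 0.29 ± 0.05 (adjusted p = 0.00537), the S phase acetyltransferase Esco2 by 0.39 ± 0.08 (adjusted p = 0.0111) and Stag2 by 0.25 ± 0.06 (adjusted p = 0.0312, lost in 6 of 23). The APC/C and cohesin lists are short, and their counts are not read as a result about them.

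Regulators of the programme had medians near 0. Of 20 MuvB, DREAM and E2F genes 3 fell and 2 rose (median -0.01), where 4.86% of all features were called lower and 4.2% higher. The transcription factor Mybl1, a relative of B-MYB, fell by 0.44 ± 0.07 (adjusted p = 0.0017), the pocket protein Rbl1 by 0.39 ± 0.09 (adjusted p = 0.0147, lost in 3 of 23) and the activator E2f2 by 0.23 ± 0.07 (adjusted p = 0.0498, lost in 13 of 23). Rbl2, the pocket protein of the DREAM complex in resting cells, rose by 0.25 ± 0.05 (adjusted p = 0.0106), called in all 23 alternatives, and E2f5 rose by 0.16 ± 0.04 (adjusted p = 0.0352, lost in 12 of 23). Among 17 CDK inhibitors, growth arrest genes and G1 cyclins and kinases 1 rose and 2 fell (median 0.03). Of features in the level range of the 44 genes, 8.93% were called lower and 6.83% higher, and the counts of these short lists are not read as a result about them. Gadd45a, a growth arrest and DNA damage gene, rose by 0.69 ± 0.10 (adjusted p = 0.00136), while the G1 kinase Cdk6 fell by 0.44 ± 0.09 (adjusted p = 0.00801) and the G1 cyclin Ccnd1 by 0.48 ± 0.11 (adjusted p = 0.0149, lost in 2 of 23). In DNA replication and S phase 47 of 47 genes lay below 0, 11 fell and 0 rose (median -0.14). Among them were the origin recognition subunit Orc1, lower by 0.29 ± 0.04 (adjusted p = 0.00181), Uhrf1, a reader of hemimethylated DNA, by 0.41 ± 0.07 (adjusted p = 0.00304) and Ccne1, a cyclin of S phase entry, by 0.21 ± 0.04 (adjusted p = 0.00969, lost in 2 of 23). In all 6 lists 0 genes passed for either compound against vehicle or for compound 6 against compound 3.

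With compound 3 added to induced cells the mitotic genes stayed near the level of vehicle. Of 44 genes 34 lay below 0 and 10 above, with a median of -0.04 (0.972-fold). This median had no stable direction: it was -0.07 without induced DMSO array 2, 0.00 without compound 3 array 3 and 0.01 with array weights, and after median scaling 27 genes lay below 0. Over all features kept the median was 0. Over features in the level range of the 44 genes it was 0.02, with 38.2% below 0. In limma 0 genes passed in either direction, where 0.0174% of all features were called lower and 0.00581% higher. At an unadjusted p under 0.05 the count was 2, both lower, or 2 of 44 where 7.29% of all features reached it in either direction. The genes with the smallest p were Cdca3 at -0.18 ± 0.07 (adjusted p = 0.604), Cdca8 at -0.15 ± 0.06 (adjusted p = 0.612) and Cdc25b at -0.10 ± 0.06 (adjusted p = 0.765). Cdca8 lay at 7.47, 7.47 and 7.32 with compound 3, under the lowest induced DMSO array at 7.53. It was 1 of 2 genes without overlap, with Cdk1, where 5.18% of all features were lower without overlap. Over the 44 genes the 95% intervals ran from -0.40 to 0.25 at their widest. Compound 3 array 3 was the lowest of its group for 39 of 44 genes.

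With compound 6 added, 30 of 44 genes lay above vehicle and 14 below, with a median of 0.05 (1.03-fold). The median was 0.02 without induced DMSO array 2 or without compound 6 array 1, and 0.08 without compound 6 array 2. Over all features kept it was -0.01. Over features in the level range of the 44 genes it was 0.01, with 45.6% below 0. In limma 0 genes passed in either direction, where 0.00291% of all features were called lower and 0% higher. At an unadjusted p under 0.05 there were 2, both higher, against 5.66% of all features in either direction. Ncapg, at 7.97, 7.68 and 7.98 against 7.75, 7.57 and 7.60 with vehicle, was at 0.24 ± 0.08 (adjusted p = 0.875). Kif20b, at 7.84, 7.68 and 7.93 against 7.72, 7.63 and 7.54, was at 0.19 ± 0.07 (adjusted p = 0.875). Both sets overlapped. Mad2l1 was the only 1 of the 44 higher without overlap, where 3.11% of all features were. Cdca8 followed at -0.11 ± 0.06 (adjusted p = 0.885). The widest intervals ran from -0.28 to 0.41. Compound 6 array 2 was the lowest of its group for 38 of 44 genes, as induced DMSO array 2 was of its own for 32.

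The compounds were compared directly at the same dose and time, a single pair. Compound 6 lay above compound 3 in 40 of 44 genes and below in 4, with a median of 0.08 (1.06-fold) against -0.01 over all features. Over features in the level range of the 44 genes it was -0.02, with 59.2% below 0. The median of the 44 genes ran from 0.04, without compound 3 array 3, to 0.13, without compound 6 array 2, over the 23 alternatives. In limma 0 genes passed, where 0.0203% of all features were called lower and 0.0232% higher, and 4 were higher at an unadjusted p under 0.05, which 8.14% of all features reached. Nuf2, at 9.78, 9.61 and 9.83 with compound 6 and 9.56, 9.55 and 9.30 with compound 3, did not overlap and differed by 0.27 ± 0.09 (95% interval 0.07 to 0.47, adjusted p = 0.407). Top2a differed by 0.17 ± 0.07 (95% interval 0.01 to 0.34, adjusted p = 0.58) and Cdk1 by 0.14 ± 0.06 (95% interval 0.00 to 0.28, adjusted p = 0.595). Groups were apart, with compound 6 higher, for 2 genes, Nuf2 and Mad2l1, where 5.77% of all features were. No difference between the compounds was thus detectable gene by gene, and with intervals from -0.21 to 0.51 at their widest they were not shown to act alike. Averaged over the 44 genes, compound 3 arrays lay at 8.99, 8.96 and 8.84 and compound 6 arrays at 9.08, 8.92 and 9.05, so the groups overlapped.

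**Figure D4:**
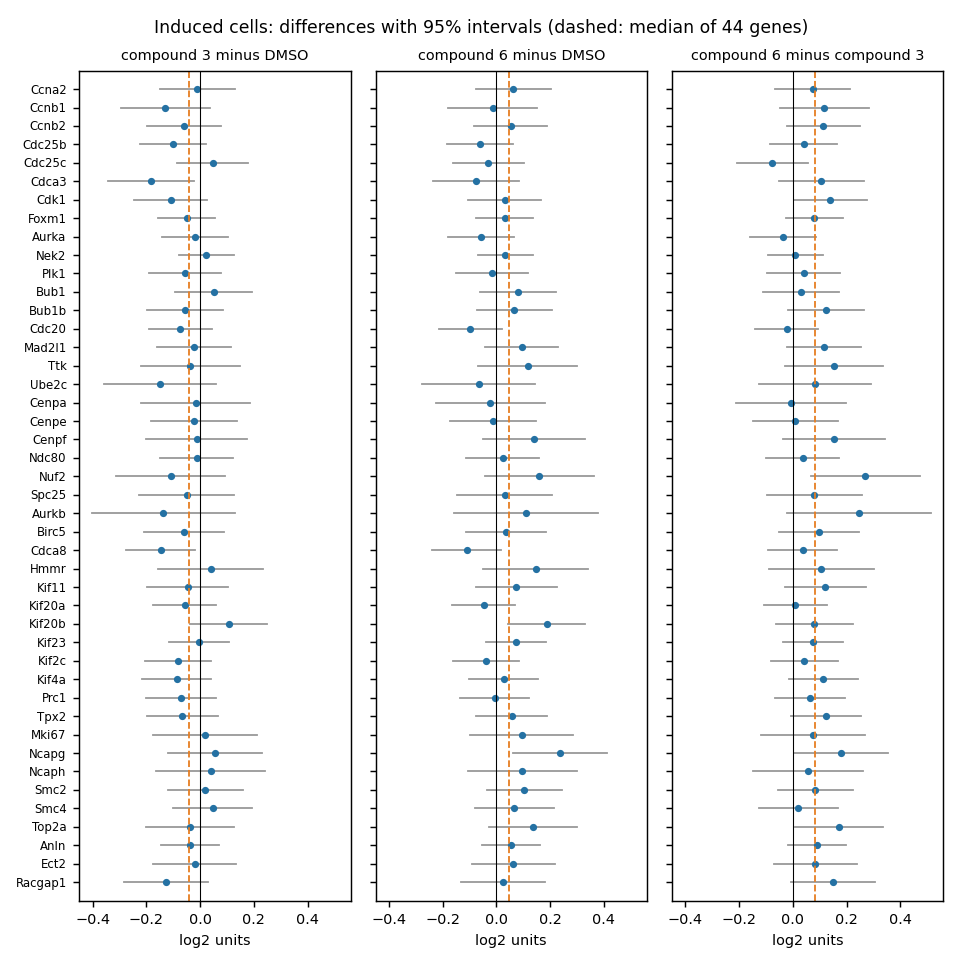
Differences for each of the 44 genes (vertical axis, by role) in induced cells, in log2 units with 95% intervals (horizontal axis): compound 3 minus DMSO, compound 6 minus DMSO and compound 6 minus compound 3, with the median of the genes dashed at -0.04, 0.05 and 0.08. The first 2 panels share the DMSO arrays, and 0 genes passed in any panel.

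Against non-induced cells both compound groups kept lower levels of mitotic genes. These comparisons share the non-induced arrays with each other and with the induction comparison, and are given side by side. With compound 3, 43 of 44 genes lay below 0, 28 fell and 0 rose, where 6.82% of all features were called lower and 8.34% higher, with a median of -0.26 (0.836-fold). With compound 6, 41 lay below, 9 fell and 0 rose, where 4.1% were called lower and 3.58% higher, with a median of -0.18 (0.881-fold). Of features in the level range of the 44 genes, 11.9% were called lower with compound 3 and 7.03% with compound 6. Of the same features 44% lay below 0 with compound 3 and 50.5% with compound 6. Arrays lay below all non-induced arrays for 36 genes with compound 3, where 13.3% of all features did, and for 30 with compound 6, where 14% did. That more genes passed with compound 3 is no test of a difference between compounds, for which the direct comparison stands. Leaving out non-induced 2 gave 18 for compound 3, non-induced 3 gave 15 and compound 3 array 3 gave 15; for compound 6, 2 were left without non-induced 3 and 3 without compound 6 array 2.

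Nuf2 lay 0.75 ± 0.09 lower with compound 3 (adjusted p = 0.000285) and 0.48 ± 0.09 lower with compound 6 (adjusted p = 0.00959) than in non-induced cells. Kif4a, at 8.76, 8.81 and 8.66 with compound 3 and 8.89, 8.75 and 8.93 with compound 6, differed by -0.41 ± 0.06 (adjusted p = 0.000718) and -0.29 ± 0.06 (adjusted p = 0.0111). Cdc25b differed by -0.37 (adjusted p = 0.000946) and -0.33 (adjusted p = 0.00503), and Ccnb1 by -0.45 (adjusted p = 0.00199) and -0.33 (adjusted p = 0.0219). Top2a, Prc1, Anln, Cenpe and Racgap1 also fell in both, by 0.47, 0.33, 0.30, 0.36 and 0.42 with compound 3 and by 0.29, 0.27, 0.21, 0.35 and 0.27 with compound 6. These are the 9 genes that passed with compound 6, and the compound 6 call failed in 12 of 23 alternatives for Racgap1, 9 for Top2a, 6 for Ccnb1, 5 for Prc1 and for Anln, 3 for Cenpe and 1 for Kif4a. Some genes not called on induction passed with compound 3: Cdk1 at -0.29 (adjusted p = 0.00796), Aurkb at -0.54 (adjusted p = 0.0112), Ube2c at -0.38 (adjusted p = 0.0189), Cdca3 at -0.29 (adjusted p = 0.0197), Cdca8 at -0.23 (adjusted p = 0.0204), Ect2 at -0.26 (adjusted p = 0.0284), Spc25 at -0.30 (adjusted p = 0.0288), Foxm1 at -0.17 (adjusted p = 0.0347) and Plk1 at -0.20 (adjusted p = 0.0499, lost in 17 of 23). The others that passed were Bub1b, Ttk, Tpx2, Kif11, Smc2, Cenpf, Ndc80, Ccna2, Hmmr and Mki67, from -0.43 (Ttk) to -0.24 (Ccna2). Of the compound 3 calls, that of Foxm1 failed in 9 of 23 alternatives, Mki67 in 8, Ccna2 and Hmmr in 7, Ndc80, Spc25 and Ect2 in 6, Cdca8 in 5, Cdca3 in 4, and Ube2c, Cenpf and Smc2 in 3. Cdc25c again lay above 0, at 0.16 with compound 3 (adjusted p = 0.114) and 0.08 with compound 6 (adjusted p = 0.536). In an F-test over the 4 group means 15 of 44 genes passed, where 10.3% of all features did, with 7 without non-induced 2 and 5 without non-induced 3.

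**Figure D5:**
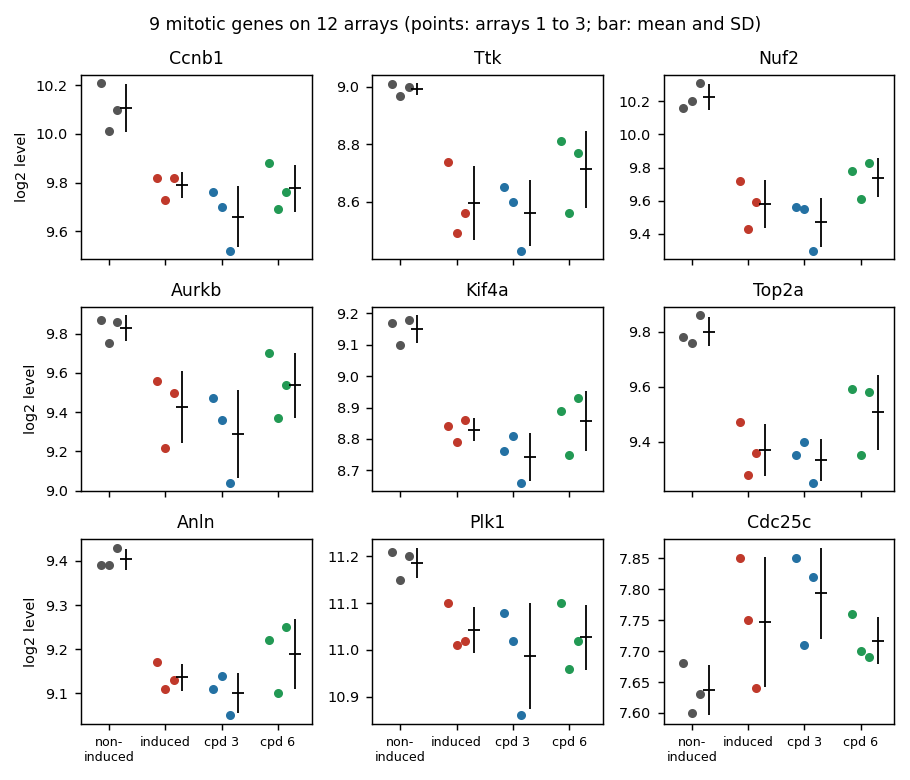
Log2 level (vertical axis) of 9 mitotic genes on the 12 arrays, by group (horizontal axis, cpd for compound); points are arrays 1 to 3 from left to right, and the bar gives the mean and SD of 3 arrays. Non-induced arrays of the first 7 genes and Plk1 lie above all induced DMSO arrays, whereas Cdc25c shows the opposite order with overlap.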

How the data were processed

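The deposited values are log2 expression levels, 1 per feature and array, normalised between arrays by the authors with Affymetrix Expression Console and RMA per the submitters' processing notes, which give no version or option. RNA, 250 ng per sample, was biotin-labelled and read on 12 Affymetrix Rat Transcriptome Arrays, 1 sample each. Of 70580 features 1738 controls were left out, and 34422 whose 12-array mean reached the median such mean (4.63) were kept. A linear model of 4 group means was fitted with limma 3.58.1 under R 4.3.3 (eBayes without a trend, 8 residual degrees of freedom, prior 3.27) and checked on simulated data. Symbols came from the platform annotation; those of all 44 genes matched RefSeq. The groups share replicate numbers whose meaning the labels do not give. Deviations from the group means correlated above 0.1 in 10 of 18 same-numbered pairs (-0.17 to 0.45). Among these were all 6 of replicate 1 (0.22 to 0.45) and all 3 of non-induced with compound 3 arrays (0.11 to 0.41). In no other comparison did all 3 pass 0.1. Differently numbered pairs ran from -0.46 to 0.42. Non-induced array 3 correlated more with compound 3 array 2 (0.27) than with compound 3 array 3 (0.11). Whether arrays are paired cannot be told from this. The main model has no replicate block, so it would ignore a pairing of non-induced and compound 3 arrays. The blocked counts are given with the alternatives. No 2 arrays were identical (0 pairs). As separate cultures are not stated, p-values here reflect only spread among these arrays, possibly technical, and the number of arrays limits precision. Rule for naming: all 44 genes, array values for 2 per role with the smallest induction p, the 3 with the smallest p per compound comparison, and 3 per direction of each other list. The genes and lists were chosen with earlier results of these data known. Figures used Python 3.11.15 and matplotlib 3.10.9.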

Additional observations from a re-analysis of the deposited data

How the results depend on the processing

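In 23 alternatives to each comparison (filters, scalings, variance models, fewer arrays, averaged features) no called one of the 44 genes changed sign, and the medians of the 44 genes moved by less than the spread between arrays (0.08). The 20 genes called lower on induction became 9 with no filter, 13 after quantile normalisation, 11 in a fit of the 2 groups alone, and 5 to 24 when 1 array was left out; genes called in the first 3 of these were among the 20. Over all features the induction calls, 1673 lower and 1447 higher, became 1761 and 787 after median scaling, and numbered 1573 in the fit of the 2 groups, 2072 with no filter, 5515 with array weights and 1815 to 5165 when 1 array was left out. For compound 3 against non-induced cells the 28 became 15 to 29 when 1 array was left out, and in features with 1 gene symbol alone, an alternative chosen after seeing the data, 1 gene, Cdc25c, passed higher. For compound 6 against non-induced cells the 9 became 4 with no filter, 16 at the 75th percentile, 16 with array weights, 17 in features with 1 symbol alone, and 2 to 11 when 1 array was left out. The F-test's 15 became 27 with array weights, 28 in features with 1 symbol alone, and 5 to 21 when 1 array was left out. The causes were not tested. With the replicate number as a block the counts lower were 22 on induction, 30 for compound 3 (all 28 among them) and 11 for compound 6 against non-induced cells, and 16 in the F-test; 6 of 12 arrays correlated best with their own number. In every alternative 0 genes passed for either compound against vehicle or for compound 6 against compound 3.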

Other observations

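A pair of the 44 genes had a second feature. The Ccnb2 feature used here has an identifier beginning TC01, whereas RefSeq places Ccnb2 on chromosome 8, and it was the only 1 of the 44 whose identifier and RefSeq chromosome differed; whether it also reports a near-identical copy was not tested. The other Ccnb2 feature, with an identifier of chromosome 8, lay at -0.09 on induction (adjusted p = 0.51) against -0.11 for the one used, so neither passed. The second Racgap1 feature was at -0.27 on induction (adjusted p = 0.0207), -0.13 with compound 3 against vehicle and 0.01 with compound 6, close to the values of the one used.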
